A study of Mus musculus with 10 samples.

Results

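Keratins were followed in sorted mouse melanoma cells as the set of all genes whose name in the deposited table is Krt with a number and at most 1 letter, which leaves out the keratin-associated Krtap genes. This name rule used no measured value and found 50 keratins among the 34162 gene names of the table. Of these, 28 were tested among 16805 genes, and the remaining 22 did not pass the filter on low counts. By their known place of expression the 50 were grouped as 3 basal, 8 suprabasal epidermal, 4 suprabasal mucosal and corneal, 7 follicle outer layer, duct and wound-induced, 7 inner root sheath, 14 hair shaft, nail and tongue papilla, and 6 simple epithelial genes. Krt222, a keratin-related gene, had no group.

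Keratins are the intermediate filament proteins of epithelial cells, and a filament is built from pairs of an acidic type I and a basic type II chain. The pair in use changes with the cell: basal keratinocytes of the skin make Krt5 with Krt14, cells that move up and differentiate make Krt1 with Krt10, and single-layered epithelia make Krt8 with Krt18. Melanocytes are not epithelial and are known for filaments of vimentin, so keratin RNA is a common sign of keratinocytes in samples from skin.

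The study set primary against metastatic melanoma cells with high c-Myc. The 10 libraries were made from cells of mice labelled C57BL/6:SV129, taken fresh from primary tumours in the skin or from metastatic tumours in lymph nodes. Every group went through a flow cytometry sort on GFP, in which GFP-positive cells were labelled c-Myc-high and GFP-negative cells c-Myc-low, and all RNA was amplified before sequencing. Each c-Myc class had 2 primary and 3 metastatic libraries. The sources used here do not give the tumour's driver alleles, the reporter that carried GFP, the age of the mice or whether a library came from 1 animal.

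The keratin genes lie in 2 clusters of the GRCm38 assembly (mm10), with 27 on chr11:99232761-100269871 and 23 on chr15:101347444-102032027. All 27 genes of the chromosome 11 cluster and most of the other cluster are transcribed from the minus strand. The type I gene Krt18 is the exception to the split by type and lies beside its partner Krt8 on chromosome 15. Genes of very different level were neighbours: only 10350 bases separate Krt10, whose highest group mean was 10900 CPM, from Krt28, an inner root sheath gene whose highest group mean was 1.68 CPM. The sequences below are the 200 bases before the RefSeq start of 3 abundant epidermal genes and of 2 inner root sheath genes of the Krt10 neighbourhood, from GRCm38.p6, minus strand, shown because these genes share a cluster or a partner but differed in level. Capitals mark the letters TATAAA.
Krt5 (chr15:101712906-101713105): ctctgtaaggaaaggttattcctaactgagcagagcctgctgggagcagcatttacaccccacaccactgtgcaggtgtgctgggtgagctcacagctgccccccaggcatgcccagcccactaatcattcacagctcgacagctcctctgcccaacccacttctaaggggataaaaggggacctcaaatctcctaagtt
Krt77 (chr15:101869706-101869905): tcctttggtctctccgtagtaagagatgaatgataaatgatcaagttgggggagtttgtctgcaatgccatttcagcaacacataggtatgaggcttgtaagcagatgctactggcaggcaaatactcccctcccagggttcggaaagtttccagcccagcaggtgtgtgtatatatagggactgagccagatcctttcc
Krt10 (chr11:99389365-99389564): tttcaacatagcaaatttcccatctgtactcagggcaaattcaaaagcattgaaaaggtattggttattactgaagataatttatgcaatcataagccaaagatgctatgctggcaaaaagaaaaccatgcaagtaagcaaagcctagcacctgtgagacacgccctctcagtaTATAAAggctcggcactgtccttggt
Krt28 (chr11:99374904-99375103): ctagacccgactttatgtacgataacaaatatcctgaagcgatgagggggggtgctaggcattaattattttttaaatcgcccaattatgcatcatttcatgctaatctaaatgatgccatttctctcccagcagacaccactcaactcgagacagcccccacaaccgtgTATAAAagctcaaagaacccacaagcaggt
Krt25 (chr11:99322952-99323151): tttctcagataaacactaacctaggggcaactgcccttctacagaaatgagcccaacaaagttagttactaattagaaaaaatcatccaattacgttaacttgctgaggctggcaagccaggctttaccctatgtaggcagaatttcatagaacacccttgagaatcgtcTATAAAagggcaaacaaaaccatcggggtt
RefSeq windows were found for 34 of the 50 keratins, 35 windows in all, since Krt13 has a pair of them. TATAAA, on either strand of the 250 bases before the start, was in 16 of these 35 windows (45.7%) and in 12.4% of 32851 windows of all genes. Epithelial and follicle keratins with a group mean of at least 10 CPM or the highest level of their group had 15 windows, the Krt13 pair included. TATAAA was in 4 of them, those of Krt10, Krt71, Krt76 and Krt84, of which Krt71 and Krt84 had group means of at most 6.75 and 9.61 CPM. The Krt14 window lies within the GENCODE span of its gene. No window was found for Krt1, Krt6a, Krt6b, Krt15, Krt16, Krt17 or Krt80, so no link of level with TATAAA was tested. Krt25, Krt26, Krt27 and Krt28 all held it. GGGCGG stood in 5.71% of keratin windows against 32.7% of all windows, TGANTCA in 5.71% against 6.75%, and GCCNNNGGC in 11.4% against 13.7%, each on either strand. These are matches of letters and were not measured as binding sites.

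The libraries held 1603012 to 6844328 estimated counts. Levels are given as CPM, the estimated counts per 1000000 counts after TMM scaling, which compares 1 gene across libraries. A floor of 3 counts in a library corresponded to 0.361 to 2.79 CPM, so lower values rest on fewer than 3 counts. Myc itself lay between 104 and 994 CPM in primary c-Myc-high and between 161 and 317 CPM in primary c-Myc-low libraries. In metastases it lay between 148 and 266 CPM in c-Myc-high and between 101 and 316 CPM in c-Myc-low libraries, so Myc RNA did not separate the classes at either site. All 10 melanocyte markers had at least 1 count in all 10 libraries, and their summed level was 590 to 2820 CPM in primary and 2880 to 20400 CPM in metastatic libraries. Metastatic c-Myc-high replicates 1 and 3 stood apart: 18 salivary gland genes summed to 217000 and 66200 CPM there, against 17.2 to 818 CPM in the other 8 libraries.

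Keratin RNA was abundant in the cells sorted from skin tumours and nearly absent from those of lymph node metastases. The 50 genes together took 4.59% and 2.39% of all counts in the primary c-Myc-high libraries and 4.76% and 1.99% in primary c-Myc-low. In metastatic c-Myc-high libraries they took 0.0378%, 0.00548% and 0.0144%, and in metastatic c-Myc-low libraries 0.00775%, 0.0118% and 0.00599%. Every primary library was above every metastatic one. In RNA from bulk sorted cells, fewer cells of a type and less RNA per cell cannot be told apart.

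Within the c-Myc-high class, 15 of the 28 tested keratins were lower in metastases and 0 were higher at an adjusted p under 0.05, while among all 16805 genes 2.31% were lower and 1.65% higher. Within the c-Myc-low class 17 keratins were lower and 0 higher, against 1.74% and 0.375% of all genes. The median log2 fold change of the tested keratins was -8.52 and -9.23 in these comparisons, and that of all genes was 0.38 and 0.1. With genes at 0 in a group set to their bound, and the 2 genes at or under 3 counts in both c-Myc-high groups left out, the keratin medians were -7.73 and -7.99. A keratin low in metastases could pass the filter on low counts only through the primary groups. Krt2, Krt24, Krt25, Krt71 and Krt76 had 0 rounded counts over the metastatic libraries of either class. The counts called, the medians and the orders of libraries given below depend in part on this filter, which was applied to all genes alike. All 3 basal and all 7 outer follicle and wound-induced keratins fell in both classes, and edgeR called 0 of 5 simple epithelial keratins in either. At an unadjusted p under 0.05 edgeR had 3 of the 5 simple epithelial keratins higher in the c-Myc-high and 0 in the c-Myc-low class. Among all 16805 genes 2738 and 1532 were higher at that threshold. DESeq2 called Krt7, Krt8 and Krt18 higher in c-Myc-high metastases, and limma-voom called Krt23 lower in c-Myc-low ones. Leaving out 1 library at a time gave 12 to 15 called keratins in the c-Myc-high and 11 to 17 in the c-Myc-low class, and the keratins that lost a call in this way were Krt10, Krt13, Krt24, Krt42, Krt75 and Krt80. Without metastatic c-Myc-high replicates 1 and 3, an alternative chosen after the data had been seen, 18 keratins were called in c-Myc-low cells and 0 in c-Myc-high cells, where 1 metastatic library was left.

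The libraries of the 2 sites did not overlap for most members. In the c-Myc-high class all metastatic libraries were below all primary ones for 20 of the 28 tested keratins and above them for 3, where 10.5% and 17.4% of all genes had these orders. Values under the floor of 3 counts were included. Of those above, Krt8 and Krt222 had metastatic libraries under it and close to the highest primary value. Krt71, one of those below, had at most 3 counts at each site. In the c-Myc-low class 23 were below and 0 above, where 20.1% and 25.2% of all genes had these orders.

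**Figure D1:**
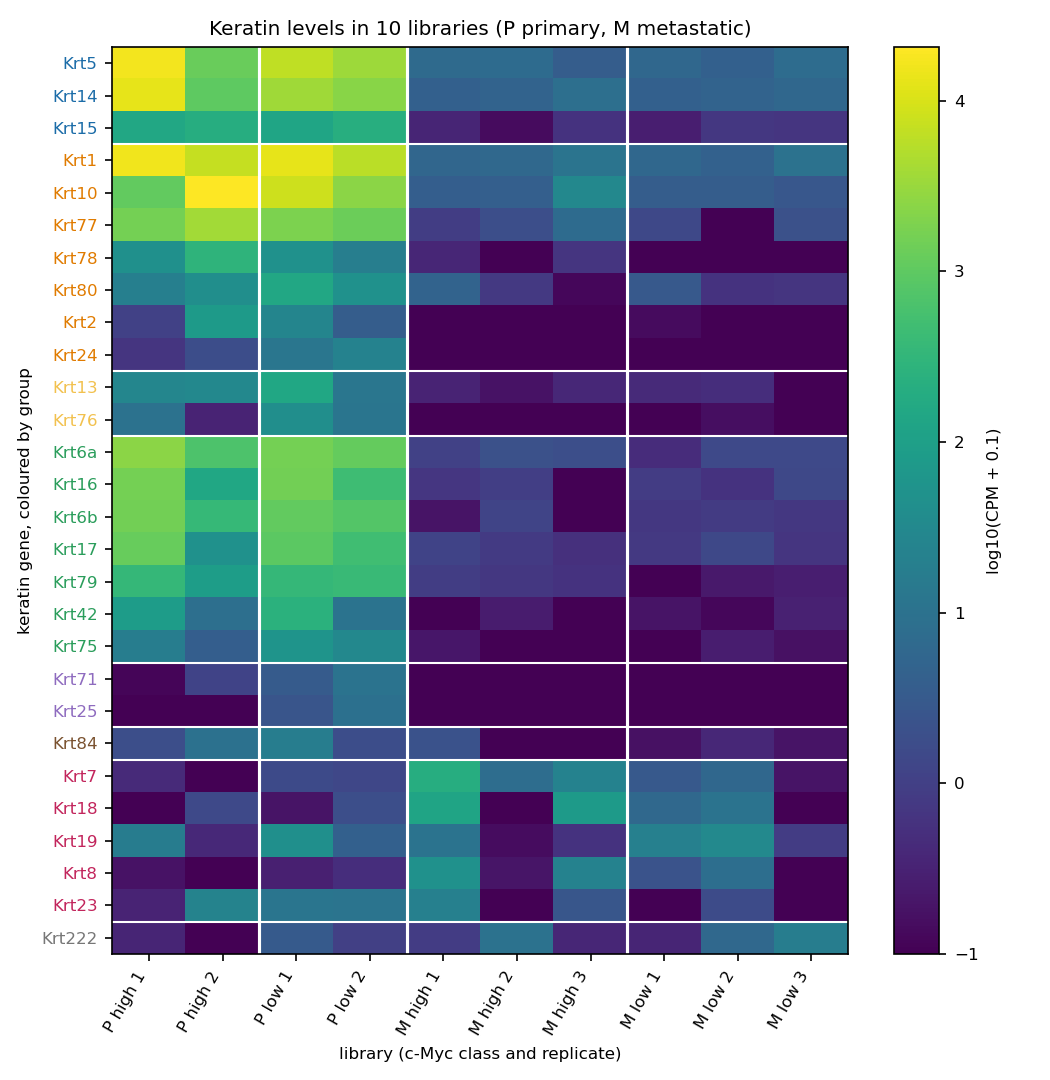
Level of the 28 tested keratins (rows, coloured by keratin group) in the 10 libraries (columns), as log10 of CPM + 0.1. The 4 primary libraries on the left are bright for basal, suprabasal and outer follicle keratins, with Krt10 reaching 20600 CPM, and the metastatic libraries are dark for most of these rows, with Krt7, Krt8 and Krt18 brightest in c-Myc-high replicates 1 and 3.

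All 3 basal keratins fell in both classes. Krt5, the type II chain of basal keratinocytes, stood at 16820 and 1270 CPM in primary c-Myc-high, 6293 and 3388 CPM in primary c-Myc-low, 6.83, 6.99 and 3.56 CPM in metastatic c-Myc-high and 5.82, 4.2 and 7.55 CPM in metastatic c-Myc-low libraries. The groups were far apart, with primary c-Myc-high replicate 2 the lowest primary library. Krt5 fell in metastases in both classes (log2 fold change -10.6 ± 1.32 SE, adjusted p = 0.00222 within the c-Myc-high class, and log2 fold change -9.68 ± 1.28 SE, adjusted p = 0.00271 within the c-Myc-low class). Its partner Krt14 stood at 13180 and 987 CPM in primary c-Myc-high, 3598 and 2350 CPM in primary c-Myc-low, 4.06, 4.9 and 8.49 CPM in metastatic c-Myc-high and 4.12, 4.83 and 5.79 CPM in metastatic c-Myc-low libraries. The order of the primary libraries was the same as for Krt5, and no metastatic library reached 10 CPM. Its log2 fold changes were -10.25 ± 1.28 SE (adjusted p = 0.00222) and -9.23 ± 1.23 SE (adjusted p = 0.00271), and values given in pairs are in the same order of the classes throughout. Krt15, a type I keratin of basal cells and of the hair follicle bulge, stood at 151 and 203 CPM in primary c-Myc-high, 129.8 and 214 CPM in primary c-Myc-low, 0.255, 0.0444 and 0.51 CPM in metastatic c-Myc-high and 0.178, 0.641 and 0.574 CPM in metastatic c-Myc-low libraries. It was more even among primary libraries than its group mates, at 130 to 214 CPM. Over the metastatic c-Myc-high libraries it had only 2 counts, 858 times lower than in primary cells by the summed rounded counts scaled for depth, the measure used for all such small counts (exact 95% interval of counting error 237 to 7090), and its log2 fold changes were -9.57 ± 1.14 SE (adjusted p = 0.00187) and -8.54 ± 1.04 SE (adjusted p = 0.00212). The basal calls held on leaving out any 1 library, but the sizes in c-Myc-high cells moved: without primary c-Myc-high replicate 1 the log2 fold change was -7.99 for Krt5 and -7.59 for Krt14, and without replicate 2 it was -11.44 and -11.08. Krt15 moved to -8.95 without metastatic c-Myc-high replicate 2 and to -10.27 without replicate 3.

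Suprabasal epidermal keratins, which mark keratinocytes that have left the basal layer, fell in the same comparisons: 4 of 7 tested in the c-Myc-high and 6 of 7 in the c-Myc-low class. Krt1, the type II chain of differentiating epidermis, stood at 15570 and 7120 CPM in primary c-Myc-high, 12810 and 5898 CPM in primary c-Myc-low, 5.59, 6.02 and 11 CPM in metastatic c-Myc-high and 5.93, 4.35 and 9.75 CPM in metastatic c-Myc-low libraries. Primary libraries lay within a range of 5900 to 15600 CPM and all metastatic libraries at or below 11 CPM. The log2 fold changes of Krt1 were -10.57 ± 1.13 SE (adjusted p = 0.00137) and -10.45 ± 1.12 SE (adjusted p = 0.000969). Its partner Krt10 stood at 1099 and 20600 CPM in primary c-Myc-high, 8129 and 2416 CPM in primary c-Myc-low, 3.75, 3.89 and 30.7 CPM in metastatic c-Myc-high and 3.55, 3.52 and 2.69 CPM in metastatic c-Myc-low libraries. The primary libraries differed widely, from 1100 CPM in c-Myc-high replicate 1 to 20600 CPM in c-Myc-high replicate 2, and among metastatic libraries c-Myc-high replicate 3 was the highest. Krt10 had log2 fold changes of -9.76 ± 1.62 SE (adjusted p = 0.00851) and -10.65 ± 1.67 SE (adjusted p = 0.00613). The c-Myc-low call of Krt10 was lost without metastatic c-Myc-low replicate 1 or 2 (adjusted p = 0.0522 and 0.0632). Its c-Myc-high value was -6.36 without primary c-Myc-high replicate 2, -10.81 without replicate 1 and -11.48 without metastatic c-Myc-high replicate 3, and remained called. In the c-Myc-low class, leaving out primary c-Myc-low replicate 1 gave -9.52 for Krt10 and -9.78 for Krt1, and leaving out replicate 2 gave -11.25 for Krt10.

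Krt77, a type II keratin of the same layers, stood at 1621 and 3730 CPM in primary c-Myc-high, 1858 and 1306 CPM in primary c-Myc-low, 0.804, 1.76 and 7.15 CPM in metastatic c-Myc-high and 1.29, 0 and 1.99 CPM in metastatic c-Myc-low libraries. Metastatic c-Myc-high replicate 3 was again the highest of the 6 metastatic libraries. Its log2 fold changes were -9.74 ± 1.49 SE (adjusted p = 0.00547) and -10.49 ± 1.53 SE (adjusted p = 0.00401). Krt78, a type II epidermal keratin, stood at 46.6 and 288 CPM in primary c-Myc-high, 48.6 and 18.6 CPM in primary c-Myc-low, 0.268, 0 and 0.555 CPM in metastatic c-Myc-high and 0, 0 and 0 CPM in metastatic c-Myc-low libraries. Primary c-Myc-high replicate 2 was the highest library, as for Krt10 and Krt77. Over the metastatic c-Myc-high libraries Krt78 had 2 counts, 509 times lower by summed counts (140 to 4220), and over the metastatic c-Myc-low libraries it had 0, at least 237-fold lower than the primary mean (adjusted p = 0.00852 and 0.0082). In c-Myc-high cells the log2 fold changes of Krt77 and Krt78 were -8.96 and -7.57 without primary replicate 2, -10.39 and -10.5 without primary replicate 1 and -10.95 and -10.19 without metastatic replicate 3. In c-Myc-low cells Krt77 had -11.22 without metastatic replicate 3 and Krt78 -9.4 without primary replicate 1, and both genes stayed called in all of these fits. Krt80, a type II keratin found in many stratified epithelia, stood at 19.9 and 42.7 CPM in primary c-Myc-high, 151 and 49.7 CPM in primary c-Myc-low, 4.88, 0.68 and 0.0219 CPM in metastatic c-Myc-high and 2.96, 0.497 and 0.561 CPM in metastatic c-Myc-low libraries. It kept the highest metastatic level relative to its primary level of the suprabasal group, and passed edgeR's test in the c-Myc-low comparison and not in the c-Myc-high one (log2 fold change -6.2 ± 1.41 SE, adjusted p = 0.0439, against log2 fold change -4.03 ± 1.32 SE, adjusted p = 0.0963 in c-Myc-high cells). That call was lost without any 1 of the 5 c-Myc-low libraries (adjusted p = 0.0777 to 0.389), with log2 fold changes of -5.18 without primary replicate 1 and -7.57 without metastatic replicate 1. DESeq2 called Krt80 in c-Myc-high cells too (adjusted p = 0.00821), as did edgeR with no filter on low counts (adjusted p = 0.0354).

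Krt2, a keratin of the upper epidermis, ranged from 0.962 to 77.2 CPM in primary and from 0 to 0.0411 CPM in metastatic libraries. It was at least 138-fold lower in the c-Myc-high and at least 104-fold lower in the c-Myc-low metastases by its counts, but missed the threshold in edgeR (adjusted p = 0.0687 and 0.106). DESeq2 called it lower in both classes (adjusted p = 0.000319 and 0.00108), as did edgeR with no filter on low counts (adjusted p = 0.00828 and 0.0126). Limma-voom, and edgeR with only the compared groups in the fit, called Krt2 in c-Myc-low cells alone (adjusted p = 0.000633 and 0.0228). The c-Myc-high bound rests on primary replicate 2, at 77.2 CPM against 0.962 CPM in replicate 1, and without replicate 2 the log2 fold change moved from -10.56 to -5.34. In c-Myc-low cells it moved from -9.18 to -6.97 without primary replicate 1. Krt24, a type I keratin of differentiated keratinocytes, ranged from 0.559 to 22.8 CPM in primary libraries and was at 0 in all 6 metastatic ones. It was called in the c-Myc-low class, where the fold was at least 124 (adjusted p = 0.0465), and not in the c-Myc-high class, where 4 counts in the primary libraries gave a fold of at least 3.94 (adjusted p = 0.161). The call was lost without any 1 of the 5 c-Myc-low libraries or of the 2 primary c-Myc-high ones (adjusted p = 0.056 to 0.199). Krt9, the keratin of footpad epidermis, had 0 counts in every library.

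The mucosal and corneal keratins were low in skin too. Krt13, a type I keratin of mouth and oesophagus, stood at 27.6 and 29.5 CPM in primary c-Myc-high, 149 and 12.3 CPM in primary c-Myc-low, 0.231, 0.0784 and 0.289 CPM in metastatic c-Myc-high and 0.329, 0.388 and 0 CPM in metastatic c-Myc-low libraries. Primary c-Myc-low replicate 1 was the highest library and no metastatic library reached 1 CPM. Krt13 fell in both classes (adjusted p = 0.0304 and 0.0138), with 2 counts over the metastatic c-Myc-high libraries, 149 times lower by summed counts (40.4 to 1240), and 6 counts over the c-Myc-low ones (log2 fold change -8.1 ± 1.47 SE). The c-Myc-high call was lost without replicate 1 or 2 of the metastatic c-Myc-high cells, replicate 2 of the metastatic c-Myc-low cells or primary c-Myc-low replicate 1 (adjusted p = 0.055 to 0.0781). The c-Myc-low call was lost without any 1 metastatic c-Myc-low library or primary c-Myc-low replicate 1 (adjusted p = 0.0665 to 0.324), and its size was -5.4 without the latter and -8.97 without primary c-Myc-low replicate 2. In c-Myc-high cells the size was -6.31 without metastatic replicate 2 and -7.64 without metastatic replicate 3. Krt76, a keratin of the palate and gums, ranged from 0.233 to 42.2 CPM in primary libraries and from 0 to 0.0577 CPM in metastatic ones, and missed the threshold in edgeR (adjusted p = 0.108 and 0.0736). With no filter on low counts edgeR called it lower in both classes (adjusted p = 0.0403 and 0.00347). With only the compared groups in the fit edgeR did so in c-Myc-low cells alone (adjusted p = 0.01). Limma-voom called Krt76 lower in c-Myc-low metastases (adjusted p = 4.9e-05), and edgeR did so on leaving out replicate 2 of the primary c-Myc-high cells (adjusted p = 0.0465). Krt4, the partner of Krt13, did not pass the filter on low counts. In c-Myc-low cells it had 128 counts in primary and 7 in metastatic libraries, which did not overlap. Its primary c-Myc-low mean was 8.15 CPM (SD 9.28). The corneal keratin Krt12 was too low for the test.

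All 7 keratins of the outer follicle layers, ducts and wounded skin fell in both classes. Krt6a, a type II keratin of the outer root sheath that is induced by wounding and proliferation, stood at 2481 and 664 CPM in primary c-Myc-high, 1578 and 1169 CPM in primary c-Myc-low, 0.983, 2.01 and 1.79 CPM in metastatic c-Myc-high and 0.371, 1.41 and 1.37 CPM in metastatic c-Myc-low libraries. Its close copy Krt6b stood at 1499 and 355 CPM in primary c-Myc-high, 1090 and 766 CPM in primary c-Myc-low, 0.0894, 1.13 and 0 CPM in metastatic c-Myc-high and 0.625, 0.735 and 0.62 CPM in metastatic c-Myc-low libraries. Primary c-Myc-high replicate 2 was the lowest primary library for both. The log2 fold changes of Krt6a were -9.83 ± 1.03 SE (adjusted p = 0.00137) and -10.36 ± 1.04 SE (adjusted p = 0.000916), and those of Krt6b were -10.81 ± 1.33 SE (adjusted p = 0.00212) and -10.41 ± 1.29 SE (adjusted p = 0.00218). The split between them is uncertain, since 49.5% of the 50-base windows of Krt6a are also found in another gene, mostly Krt6b, and 50.1% of those of Krt6b. In c-Myc-high cells the log2 fold changes of Krt6a and Krt6b were -8.79 and -9.64 without primary replicate 1 and -10.44 and -11.46 without primary replicate 2, and that of Krt6b was -15.24 without metastatic replicate 2. Both remained called in these fits.

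Krt16, the type I partner of Krt6 in wounded and proliferating epidermis, stood at 1630 and 143 CPM in primary c-Myc-high, 1537 and 466 CPM in primary c-Myc-low, 0.603, 0.863 and 0 CPM in metastatic c-Myc-high and 0.786, 0.499 and 1.3 CPM in metastatic c-Myc-low libraries. Of its windows 37.6% are shared with another gene, so its level is uncertain as well. Krt16 had log2 fold changes of -10.68 ± 1.38 SE (adjusted p = 0.00265) and -10.18 ± 1.33 SE (adjusted p = 0.00271). Krt17, a type I keratin of the follicle and of injured skin, stood at 1199 and 47.8 CPM in primary c-Myc-high, 944 and 474 CPM in primary c-Myc-low, 1.07, 0.697 and 0.449 CPM in metastatic c-Myc-high and 0.671, 1.31 and 0.556 CPM in metastatic c-Myc-low libraries. Both had their lowest primary level in c-Myc-high replicate 2, at 143 and 47.8 CPM. Krt17 had log2 fold changes of -9.66 ± 1.33 SE (adjusted p = 0.00341) and -9.69 ± 1.31 SE (adjusted p = 0.00271). The c-Myc-high sizes depended on primary replicate 1, without which Krt16 had -8.26 and Krt17 -6.15. Without primary replicate 2 they had -11.5 and -10.54, and without metastatic replicate 2 Krt16 had -11.37. In c-Myc-low cells Krt16 had -9.06 without primary replicate 1 and -10.78 without primary replicate 2. Both genes were called in all of these fits.

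Krt79, a type II keratin of the hair canal and sebaceous ducts, stood at 347 and 92.7 CPM in primary c-Myc-high, 347 and 392 CPM in primary c-Myc-low, 0.842, 0.61 and 0.51 CPM in metastatic c-Myc-high and 0, 0.128 and 0.183 CPM in metastatic c-Myc-low libraries. It was even in 3 primary libraries and lower in c-Myc-high replicate 2. In c-Myc-high cells its log2 fold change was -8.34 ± 0.98 SE (adjusted p = 0.00187), and in c-Myc-low cells, where it had 2 counts over the metastatic libraries, it was 3800 times lower by summed counts (1050 to 31400, adjusted p = 0.000916). Its c-Myc-high value was -7.31 without primary replicate 1 and -8.94 without primary replicate 2, and was called in both fits. Krt42, a type I keratin, stood at 85.8 and 8.62 CPM in primary c-Myc-high, 249 and 10.4 CPM in primary c-Myc-low, 0, 0.159 and 0 CPM in metastatic c-Myc-high and 0.0933, 0.0256 and 0.209 CPM in metastatic c-Myc-low libraries. Primary replicates 1 of both classes were above replicates 2, and the metastatic libraries held 1 count in the c-Myc-high and 2 in the c-Myc-low class. By summed counts Krt42 was 744 times (133 to 29400) and 1890 times (523 to 15600) lower in metastases, and by the means of the libraries 890 and 1190 times, with adjusted p = 0.0228 and 0.0103. Its c-Myc-high call was lost without metastatic c-Myc-high replicate 1 or 2 or primary c-Myc-high replicate 1 (adjusted p = 0.0618 to 0.0958), and its c-Myc-low call without any 1 metastatic c-Myc-low library or primary c-Myc-low replicate 1 (adjusted p = 0.0562 to 0.181). Its log2 fold change was -6.41 and -6.36 without primary replicate 1 of the class, -9.52 and -10.98 without primary replicate 2, and in c-Myc-high cells -10.95 without metastatic replicate 2. Krt75, a keratin of the companion layer, ranged from 3.72 to 56.3 CPM in primary and from 0 to 0.16 CPM in metastatic libraries. By its rounded counts it was at least 38.3-fold lower in c-Myc-high metastases (0 counts, adjusted p = 0.0336) and 1030 times lower in c-Myc-low metastases (1 count, 184 to 40600, adjusted p = 0.0171). Its c-Myc-high call was lost without replicate 1 or 2 of the metastatic c-Myc-high cells, replicate 2 or 3 of the metastatic c-Myc-low cells, primary c-Myc-high replicate 1 or either primary c-Myc-low library (adjusted p = 0.0513 to 0.0875). Its c-Myc-low call was lost without any 1 of the 5 c-Myc-low libraries (adjusted p = 0.0565 to 0.122). The log2 fold change of Krt75 was -7.42 without primary c-Myc-high replicate 1 and -9.54 without replicate 2 in the first class, and -10.67 without metastatic c-Myc-low replicate 2 in the other.

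**Figure D2:**
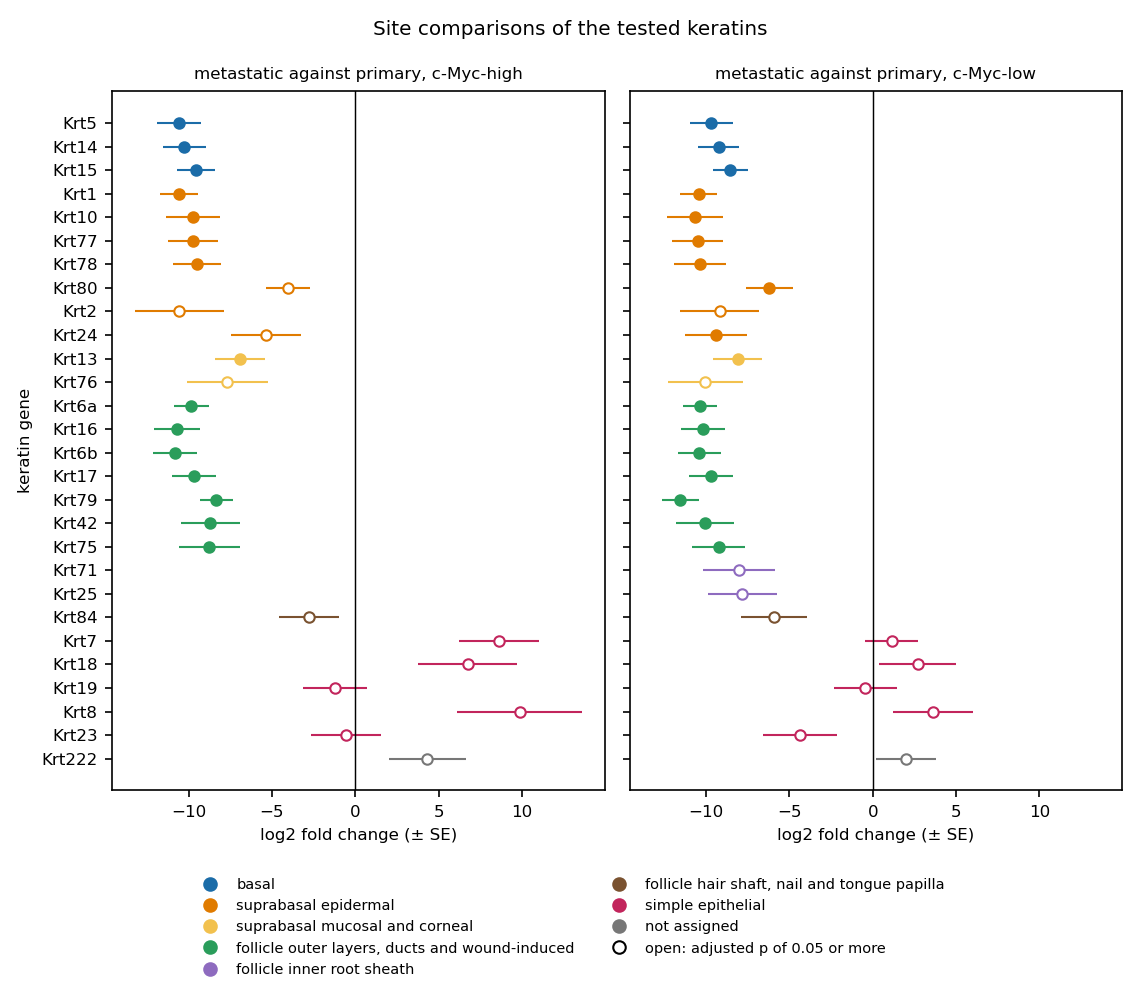
Log2 fold change of metastatic against primary cells with its standard error for the tested keratins (rows, coloured by group), in c-Myc-high cells (left) and c-Myc-low cells (right); filled points passed an adjusted p under 0.05, and Krt25 and Krt71 are not drawn on the left because both groups had at most 3 counts. Filled points lie at -6.2 or below on both sides, and all of them belong to basal, suprabasal or outer follicle groups, while Krt7, Krt8 and Krt18 lie above 0 and are open in this edgeR fit.

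The inner parts of the follicle were barely represented. Of the 7 inner root sheath genes Krt71 and Krt25 could be tested, and edgeR called neither. Krt71, the main type II keratin of the inner root sheath, stood at 0.0166 and 1.09 CPM in primary c-Myc-high, 3.19 and 10.3 CPM in primary c-Myc-low, 0, 0 and 0 CPM in metastatic c-Myc-high and 0, 0.00192 and 0 CPM in metastatic c-Myc-low libraries. Its signal was highest in primary c-Myc-low replicate 2, where Krt25 (9.15 CPM), Krt27 (4.58 CPM) and Krt28 (2.92 CPM) were highest too. In c-Myc-low cells Krt71 was at least 47.5-fold and Krt25 at least 40.8-fold lower in metastases (adjusted p = 0.115 and 0.124). For Krt71 limma-voom gave a call there (adjusted p = 0.000267), as did edgeR with no filter on low counts (adjusted p = 0.0349) and with only the 2 groups compared in the fit (adjusted p = 0.0261). In c-Myc-high cells both genes had at most 3 counts at both sites, so no fold is given.

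Of the 14 hair shaft, nail and tongue papilla keratins only Krt84 was tested. Krt84, a type II hair keratin, stood at 1.76 and 9.34 CPM in primary c-Myc-high, 17.5 and 1.71 CPM in primary c-Myc-low, 2.06, 0 and 0 CPM in metastatic c-Myc-high and 0.0742, 0.299 and 0.0917 CPM in metastatic c-Myc-low libraries. The sites overlapped in the c-Myc-high class, where metastatic replicate 1 was above primary replicate 1. EdgeR did not call it (log2 fold change -2.79 ± 1.81 SE, adjusted p = 0.331, and 90.8 times lower by summed counts with an interval of 30.5 to 445 and adjusted p = 0.159 in c-Myc-low cells), while DESeq2 and limma-voom called it lower in c-Myc-low metastases (adjusted p = 0.0268 and 0.007). So did edgeR with only the compared groups in the fit (adjusted p = 0.026). The other 13 had group means of at most 1.16 CPM, and 4 of them had values of 0 in every library: Krt36, Krt39, Krt40 and Krt82. Hair shaft genes also share sequence, as 43.5% of the windows of Krt81 occur in another gene, mostly Krt86. The row named Krt83 carries a transcript that the GENCODE annotation assigns to Krt87, and Krt74 is annotated as a pseudogene. Among 53 keratin-associated protein genes, which cross-link hair keratins, 1 had enough counts for a test and it was not called.

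EdgeR called none of the 5 tested simple epithelial keratins in either class. Krt7, a type II keratin of glands and ducts, stood at 0.335 and 0 CPM in primary c-Myc-high, 1.47 and 1.23 CPM in primary c-Myc-low, 209, 7.77 and 23 CPM in metastatic c-Myc-high and 2.88, 5.74 and 0.0917 CPM in metastatic c-Myc-low libraries. All 3 metastatic c-Myc-high libraries were above both primary ones, while the c-Myc-low libraries of the 2 sites overlapped. In the c-Myc-high class 864 counts stood against 1, a ratio of 428 (76.5 to 16900), which missed the threshold in edgeR (adjusted p = 0.0662) and passed it in DESeq2 (adjusted p = 0.000304) and in edgeR with no filter on low counts (adjusted p = 0.0185). In the c-Myc-low class the log2 fold change was 1.14 ± 1.58 SE (adjusted p = 0.997). The level of each library is given for 3 further simple keratins as well, a choice made after their values were seen.

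Krt8, the type II keratin of single-layered epithelia, stood at 0.0798 and 0 CPM in primary c-Myc-high, 0.198 and 0.384 CPM in primary c-Myc-low, 48.5, 0.102 and 22.9 CPM in metastatic c-Myc-high and 2.14, 8.28 and 0 CPM in metastatic c-Myc-low libraries. Krt18, its partner, stood at 0 and 1.4 CPM in primary c-Myc-high, 0.0902 and 1.8 CPM in primary c-Myc-low, 127, 0 and 79 CPM in metastatic c-Myc-high and 6.06, 10.5 and 0 CPM in metastatic c-Myc-low libraries. The pair was high in metastatic c-Myc-high replicates 1 and 3, lower in metastatic c-Myc-low replicates 1 and 2, and at or near 0 in the 2 other metastatic libraries. In the c-Myc-high class Krt8 was at least 41.7-fold higher in metastases than in primary cells, where it had 0 rounded counts, and Krt18 was 156 times higher (42.9 to 1290); neither passed the threshold in edgeR (adjusted p = 0.138 and 0.177), and both did in DESeq2 (adjusted p = 0.0118 and 0.0359). In the c-Myc-low class Krt8 was 15.3 times higher (5.04 to 75.5, adjusted p = 0.614), and the log2 fold change of Krt18 was 2.69 ± 2.33 SE (adjusted p = 0.811). Krt8 is uncertain because 26.9% of its windows are shared, mostly with Krt8-ps.

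Krt19, a type I keratin of ducts and of follicle stem cells, stood at 16.6 and 0.306 CPM in primary c-Myc-high, 43.7 and 4.25 CPM in primary c-Myc-low, 10.6, 0.0482 and 0.51 CPM in metastatic c-Myc-high and 20.6, 31.9 and 0.763 CPM in metastatic c-Myc-low libraries. Unlike Krt7, Krt8 and Krt18 it was above 10 CPM in primary replicate 1 of both classes and was higher in metastatic c-Myc-low replicates 1 and 2 than in any metastatic c-Myc-high library. The sites overlapped in both classes (log2 fold change -1.21 ± 1.93 SE, adjusted p = 0.72 and log2 fold change -0.44 ± 1.9 SE, adjusted p = 1). Krt23, a type I keratin, ranged from 0.242 to 23.7 CPM in primary and from 0 to 20.3 CPM in metastatic libraries, and was not called by edgeR (adjusted p = 0.888 and 0.408). Limma-voom called it lower in c-Myc-low metastases (adjusted p = 0.0208). Krt20, a keratin of the gut lining, had 8 rounded counts in the primary c-Myc-low libraries and 0 in the other groups.

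The libraries high in Krt7, Krt8 and Krt18 were the same 2 in which the salivary gland genes were high, with 17 of 18 genes detected in replicate 1 and 15 of 18 in replicate 3. The other metastatic c-Myc-high library had 12 of 18 at a sum of 152 CPM, and the metastatic c-Myc-low libraries had 11 to 15 of 18 at sums of 66.8 to 818 CPM. Without those 2 libraries Krt18 had a log2 fold change of -4.87 and Krt7 of 5.24. The part of the salivary gland genes in the simple keratin values was not tested further. The group of metastatic c-Myc-high cells then held 1 library, assumed to vary like the other groups, and 0 of all genes and 0 keratins were called in that comparison. The median log2 fold change of the tested keratins was -8.54 in that fit.

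**Figure D3:**
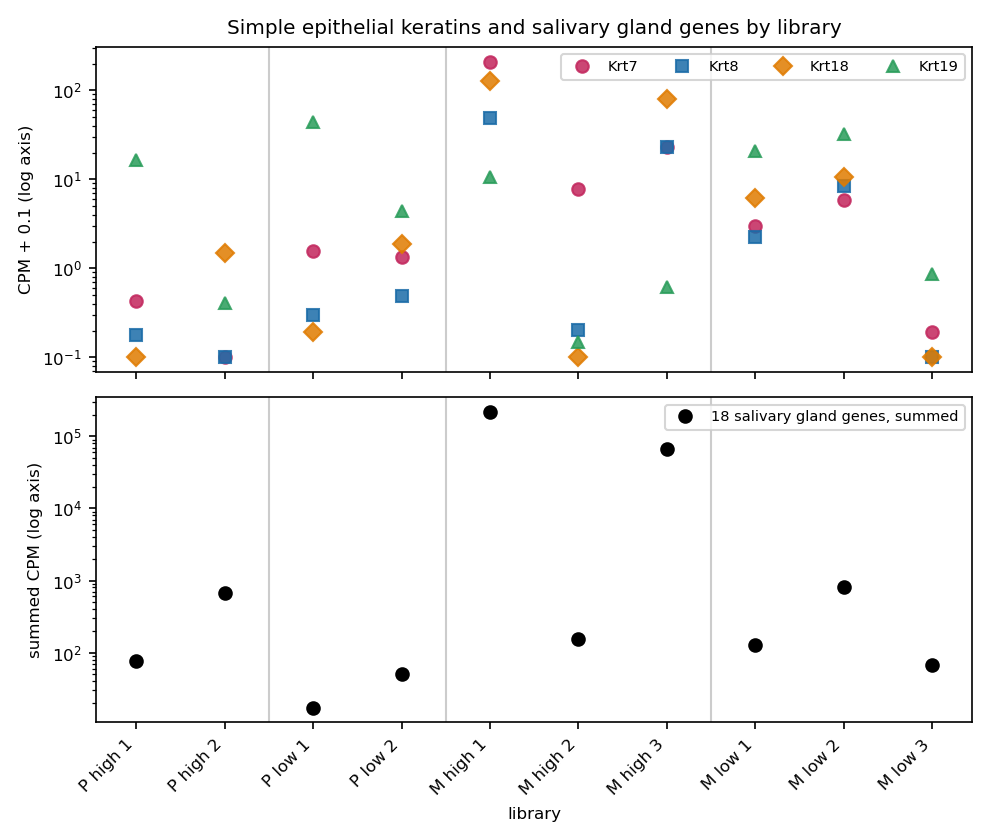
Levels of Krt7, Krt8, Krt18 and Krt19 as CPM + 0.1 (top) and summed CPM of 18 salivary gland genes (bottom) in each library, both on log axes. Krt7, Krt8 and Krt18 and the salivary sum are highest in metastatic c-Myc-high replicates 1 and 3, whereas Krt19 is highest in primary c-Myc-low replicate 1 (43.7 CPM) and metastatic c-Myc-low replicate 2 (31.9 CPM).

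Krt222, the keratin-related gene, stood at 0.25 and 0 CPM in primary c-Myc-high, 3.15 and 0.904 CPM in primary c-Myc-low, 0.793, 10.2 and 0.278 CPM in metastatic c-Myc-high and 0.253, 6.25 and 17.9 CPM in metastatic c-Myc-low libraries. The 3 metastatic c-Myc-high libraries were above the 2 primary ones, with 54 counts against 1, a ratio of 26.7 (4.6 to 1070), and the c-Myc-low groups overlapped. Most of the 54 counts came from metastatic c-Myc-high replicate 2, and replicates 1 and 3 had at most 3 counts each. Without replicate 2 the log2 fold change of Krt222 moved from 4.33 to 1.75. It was not called in either class (adjusted p = 0.249 and 0.833).

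Within a library, genes can be compared by the RPKM of the authors, which corrects for transcript length. In primary c-Myc-high replicate 1 the highest keratins were Krt14 (2440 RPKM), Krt5 (1700 RPKM) and Krt1 (1410 RPKM). In replicate 2 of the same group they were Krt10 (534 RPKM), Krt1 (158 RPKM) and Krt77 (69.1 RPKM). Both primary c-Myc-low libraries were led by Krt1, at 1500 and 308 RPKM. The 2 primary c-Myc-high libraries thus had opposite make-ups: basal genes gave 62.3% and 9.31% of the summed keratin RPKM, and suprabasal epidermal genes 24.8% and 86.4%. In the primary c-Myc-low libraries basal genes gave 29.5% and 38.7% and suprabasal epidermal genes 52% and 43%.

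The ratio of Krt10 to Krt14, a marker of differentiated cells over one of basal cells, was 0.0477 and 12.5 in primary c-Myc-high and 1.47 and 0.581 in primary c-Myc-low libraries. The basal partners kept close together, with a ratio of Krt14 to Krt5 of 0.921 to 1.43 in the 4 primary libraries, while the ratio of Krt10 to Krt1 ran from 0.0824 to 3.38. Primary c-Myc-high replicate 2 was also the shallowest library. The 10 genes listed around keratin bundling and cross-linking summed to 52900 CPM there, against 699 to 3610 CPM in the other primary libraries. That sum was led by Sfn, which averaged 27200 CPM over the primary c-Myc-high libraries (SD 34600). No other gene of the list had a group mean above 317 CPM, so the sum speaks for Sfn and not for the list.

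**Figure D4:**
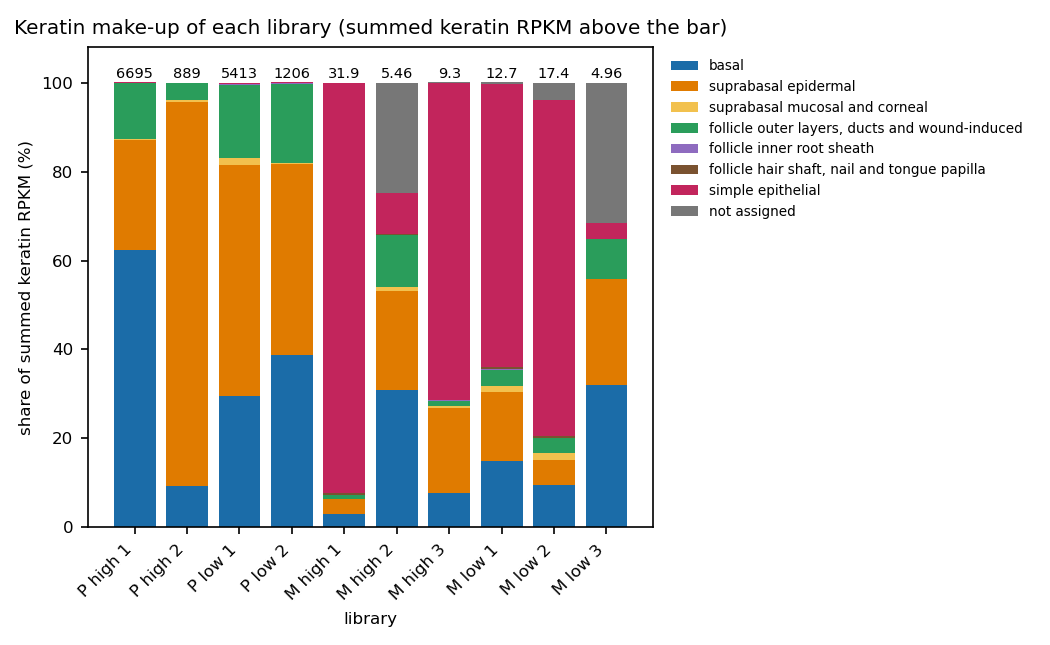
Share of each keratin group in the summed keratin RPKM of a library (stacked bars, %), with the summed RPKM above each bar. Basal, suprabasal epidermal and outer follicle genes fill the 4 primary bars in differing parts, and simple epithelial genes make up 3.47% to 92.1% of the far smaller metastatic sums.

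The share of simple epithelial genes in the keratin RNA was higher in all 6 metastatic libraries than in any primary one, with the other keratins low there. Their summed level was 17.2 and 25.4 CPM in primary c-Myc-high and 57.6 and 19.1 CPM in primary c-Myc-low libraries. It was 416, 7.92 and 128 CPM in metastatic c-Myc-high and 31.7, 58 and 0.855 CPM in metastatic c-Myc-low libraries, so the sites overlapped in both classes while the shares did not. Simple epithelial genes gave 92.1%, 9.07% and 71.4% of the keratin RPKM in the c-Myc-high and 63.6%, 75.5% and 3.47% in the c-Myc-low libraries, against 0.0749% to 0.355% in the 4 primary ones. Of the metastatic c-Myc-high libraries, replicates 1 and 3 were led by Krt18 (13.1 and 4.6 RPKM) and replicate 2 by Krt222 (1.36 RPKM), and metastatic c-Myc-low replicate 1 was led by Krt19 (6.11 RPKM). Basal keratins still summed to 9.67 to 13.9 CPM and suprabasal epidermal keratins to 8.37 to 49.4 CPM in the 6 metastatic libraries. Of the 8 suprabasal epidermal genes, 3 to 5 had at least 1 count in a metastatic library. In each primary library 7 did. Krt1, Krt5, Krt10 and Krt14 had at least 1 count in all 10 libraries.

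Between the c-Myc classes of 1 site no keratin passed the threshold. In primary cells edgeR called 0 of 28 keratins (0% of all genes), and Krt25 alone had an unadjusted p under 0.05 (11.6% of all genes); DESeq2 called 0 keratins (2.42% of all genes) and limma-voom 0 (0.0119%). The log2 fold changes of c-Myc-high over c-Myc-low were 0.9 ± 1.07 SE for Krt5, 1.25 ± 1.05 for Krt14, 0.28 ± 0.9 for Krt1 and 1.04 ± 1.35 for Krt10. Their signs followed single libraries: without primary c-Myc-high replicate 1 they were -1.78 for Krt5 and -1.44 for Krt14, and without replicate 2 the value of Krt10 was -2.33. Krt25 had 0 counts in primary c-Myc-high and 52 in primary c-Myc-low libraries (adjusted p = 0.419).

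**Figure D5:**
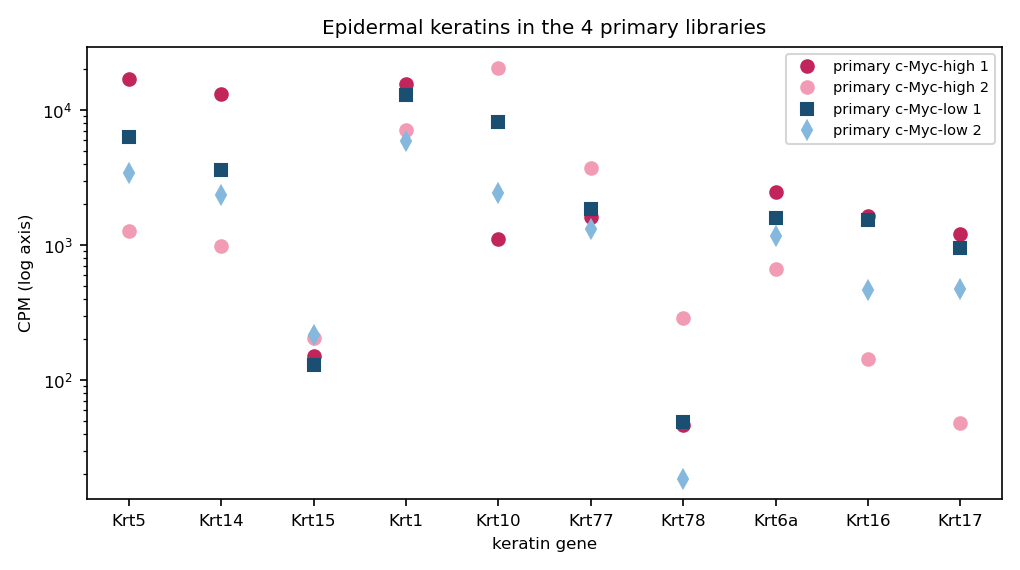
CPM of 10 epidermal and wound-induced keratins in the 4 primary libraries, on a log axis. The 2 c-Myc-high libraries (circles) lie on either side of the c-Myc-low ones for Krt5, Krt14, Krt10, Krt6a, Krt16 and Krt17. Their replicate 2 is lowest for Krt5, Krt14, Krt6a, Krt16 and Krt17 and highest for Krt10, Krt77 and Krt78.

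In metastases edgeR also called 0 keratins between the classes (0% of all genes), and 2 had an unadjusted p under 0.05 (4.8% of all genes); DESeq2 called 0 (0.512%) and limma-voom 0 (0%). Those 2 were Krt7 (log2 fold change 4.76 ± 1.53 SE, adjusted p = 0.999) and Krt79 (2.47 ± 0.98, adjusted p = 1). The difference of the site effect between the classes was tested as an interaction, where edgeR called 0 keratins (0% of all genes), DESeq2 0 (0.506%) and limma-voom 0 (0%). Krt7 (7.48 ± 2.72) and Krt79 (3.21 ± 1.27) again had an unadjusted p under 0.05, as 6.84% of all genes did, with adjusted p = 0.724 for both. The 2 keratins called only in the c-Myc-low site comparison, Krt24 and Krt80, are therefore not shown to differ between the classes.

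Most genes listed as working with keratins in keratinocytes had lower levels in metastases too, though not all of them were called. Of 15 tested keratinocyte transcription factors 6 were lower in c-Myc-high and 8 in c-Myc-low metastases, where 2.31% and 1.74% of all genes were lower. These counts ran from 4 to 6 and from 0 to 8 on leaving out 1 library. In c-Myc-low cells 0 were called without metastatic replicate 1 or 3 of that class and 1 without metastatic replicate 2. Without primary replicate 1 of that class 2 were called, and without primary replicate 2 the count was 3. In c-Myc-high cells the 4 came without primary replicate 2 or metastatic replicate 1 or 2 of that class. Trp63, the master regulator of stratified epithelium, averaged 1130 and 1520 CPM in the primary cells of the classes and 6.58 and 2.35 CPM in metastatic ones (adjusted p = 0.0225 and 0.0104). Gata3, which acts in follicle and epidermis, had log2 fold changes of -8.11 and -5.5 (adjusted p = 0.00389 and 0.018). Those of Zfp750, a factor of terminal differentiation, were -5.98 and -7.68 (adjusted p = 0.024 and 0.0101). Foxn1, a factor of follicle and differentiating epidermis, averaged 20.3 and 51.2 CPM in primary cells and 0 and 0.0624 CPM in metastatic ones (adjusted p = 0.0223 and 0.0137). Lef1 and Sox9 are named after their values were seen. Lef1 alone of the list had positive log2 fold changes, 4.69 ± 1.24 SE and 3.58 ± 1.16 (adjusted p = 0.0571 and 0.148), and was its highest member in every metastatic library. Sox9 changed by -0.46 ± 1.19 and -1.65 ± 1.18 and was not called.

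Of 15 desmosome and linker genes, which tie keratin filaments to the cell's edge, 8 were lower and 1 higher in c-Myc-high metastases and 9 were lower in c-Myc-low ones. Among all genes 2.31% and 1.74% were lower and 1.65% and 0.375% higher. The desmosomal cadherins Dsc3 and Dsg3 changed by -9.46 ± 1.23 SE and -10.11 ± 1.37 in c-Myc-high cells and by -9.05 ± 1.19 and -9.96 ± 1.34 in c-Myc-low cells. Col17a1, a hemidesmosome collagen of basal cells, changed by -10.32 ± 1.23 and -8.53 ± 1.13, and the desmosome-associated Perp by -6.07 ± 1.21 and -10.58 ± 1.45. The gene that rose was Pkp2, a plakophilin also found outside stratified epithelia (9.42 ± 2.26, adjusted p = 0.0463), named after its value was seen. It was the only call upward, and of the fits without 1 library only that without metastatic c-Myc-high replicate 3 had such a call. The called desmosome and linker genes numbered 5 to 7 and 6 to 10 on leaving out 1 library, the 5 without metastatic c-Myc-low replicate 2. Of 10 genes listed around keratin bundling and cross-linking in cornified cells, some with other roles, 9 and 7 were lower, against 2.31% and 1.74% of all genes. Among them were Lor (-9.91 ± 1.09 and -5.67 ± 0.9), Ivl (-10.01 ± 1.28 and -9.64 ± 1.24), Casp14 (-9.81 ± 1.37 and -11.34 ± 1.36) and Flg2 (-9.22 ± 1.45 and -8.24 ± 1.38). The calls among these 10 ran from 5 to 8 and from 3 to 8 on leaving out 1 library. In c-Myc-high cells the 5 came without metastatic replicate 1 of that class. In c-Myc-low cells 4 were called without metastatic replicate 1 of that class and 3 without metastatic replicate 2 or 3.

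Of the other intermediate filament genes none was called lower by edgeR. Of 9 tested, 1 was higher in c-Myc-high metastases, Nes, which encodes nestin (7.24 ± 1.6, adjusted p = 0.0319; 3.33 ± 1.17, adjusted p = 0.184 in c-Myc-low cells), and 0 were called in c-Myc-low ones. Among all genes 1.65% and 0.375% were higher and 2.31% and 1.74% lower in these comparisons. On leaving out 1 library, the intermediate filament list had a c-Myc-high call only without metastatic replicate 2 or 3 of that class or metastatic c-Myc-low replicate 3. Vim, the filament gene of mesenchymal and pigment cells, stood at 831 and 402 CPM in primary c-Myc-high, 78.4 and 172 CPM in primary c-Myc-low, 879, 552 and 2490 CPM in metastatic c-Myc-high and 1710, 1210 and 1050 CPM in metastatic c-Myc-low libraries. The c-Myc-low groups did not overlap and the c-Myc-high groups did, and neither change passed the threshold (1.08 ± 0.83, adjusted p = 0.414; 3.4 ± 0.93, adjusted p = 0.0904).

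Markers of other cells differed by site as well. Of 10 pan-leukocyte markers 5 were higher in c-Myc-high and 1 in c-Myc-low metastases, where 1.65% and 0.375% of all genes were higher, and their summed level was 34.3 to 151 CPM in primary and 397 to 5200 CPM in metastatic libraries. The leukocyte calls ran from 0 to 8 and from 0 to 5 on leaving out 1 library. In c-Myc-high cells 0 were called without either primary library of that class, and 1 without metastatic c-Myc-low replicate 2. The count there was 2 without metastatic replicate 1 of the class, 3 without its metastatic replicate 2 or either primary c-Myc-low library, and 8 without its metastatic replicate 3. In c-Myc-low cells 0 were called without either primary library or metastatic replicate 2 or 3 of that class, 4 without replicate 2 of the metastatic c-Myc-high cells and 5 without their replicate 3. Of 10 melanocyte markers 0 were called in c-Myc-high cells and 1, Pmel, was higher in c-Myc-low metastases (3.61 ± 0.78, adjusted p = 0.0349). That list had 0 calls without any 1 c-Myc-low library, and 2 or 3 without replicate 1 or 2 of the primary c-Myc-high cells. Of 10 fibroblast markers 0 were called, with sums of 1820 to 5660 CPM in primary and 182 to 1070 CPM in metastatic libraries. The sum does not stand for every marker: it was led by Postn in 3 of the 4 primary libraries, and while 8 of the 10 log2 fold changes were negative in c-Myc-high cells (median -2.58), 8 were positive in c-Myc-low cells (median 1.23). Of 6 tested fibroblastic reticular and endothelial markers, Pecam1 was higher in c-Myc-high metastases (6.25 ± 1.44, adjusted p = 0.0373), and 0 were called in c-Myc-low cells. A c-Myc-high call in that list was seen only in the fits without metastatic replicate 3 of that class or metastatic c-Myc-low replicate 1 or 3. Of 11 genes listed as simple epithelium markers 0 were called in c-Myc-high cells, and Esrp2 and Esrp1 were lower in c-Myc-low metastases (-6.88 ± 1 and -7.78 ± 1.5). Without any 1 c-Myc-low library 1 was called there, and without metastatic c-Myc-high replicate 2 the count was 4. That list does not single out simple epithelium here. Its sum was 1500 to 4210 CPM in primary libraries, where Krt8 and Krt18 were scarce, and 51.6 to 1100 CPM in metastatic ones. Of 5 thymic epithelial markers 1, Foxn1, which is also on the keratinocyte list, was lower in both classes. This list had 0 calls in c-Myc-high cells without metastatic replicate 1 of that class or either primary c-Myc-low library, and 0 in c-Myc-low cells without any 1 metastatic library or primary replicate 1 of that class. The part of these cell types in the keratin result was not tested.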

How the data were processed

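RNA of sorted cells was amplified and sequenced, per the labels' protocols. The authors deposited estimated counts per transcript, which need not be whole, and RPKM per transcript; Bowtie2, limma and the mm10 build are named in the submitters' processing notes, with no version, and the strandedness of counting is not given in the sources used here. Estimated counts of 92214 transcripts were summed by gene name and rounded. No row lacked a gene name, and 0 columns belonged to other samples. The deposited RPKM served only to compare genes within a library.

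Genes passing edgeR's default expression filter (16805) were fitted with edgeR 4.0.16 in R 4.3.3: TMM scaling, robust quasi-likelihood tests over the 4 groups, no covariate, and Benjamini-Hochberg adjustment over all of them, called at 0.05. Where no tool is named, adjusted p-values come from edgeR, and standard errors derive from the F statistic. The common biological coefficient of variation was 0.876. DESeq2 1.42.0 and limma 3.58.1 (voom with sample quality weights) were alternatives; DESeq2 gave no adjusted p for 2 keratins in the primary class comparison and in the interaction. The procedure was tested on simulated data. Fold bounds use 3 counts over a group and intervals are exact 95% binomial, for counting error only.

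Keratins with a group mean of at least 100 CPM, or the highest of a group without one, are given in every library, those of at least 10 CPM by range, and up to 4 members per other list by lowest p. Members and lists were chosen with earlier results of these data known. The labels do not tie replicates to animals, so p-values measure the spread between samples only. Sequence windows come from RefSeq (GRCm38.p6), gene positions from GENCODE for GRCm38, in which 95.7% of deposited transcripts were found. Replicates of a group differed beyond sampling noise by a chi-square test, so none was merged.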

Additional observations from a re-analysis of the deposited data

How the results depend on the processing

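The counts of called keratins below are given without the share of all genes called in the same fit, and the tools differ in that share. Between the classes in primary cells DESeq2 called 2.42% of all genes and edgeR 0%. In c-Myc-high cells 10 (limma-voom) to 20 (DESeq2, 17 lower and 3 higher) keratins were called by site, and in c-Myc-low cells 13 to 23 (limma-voom). Leaving out 1 library gave 12 to 15 and 11 to 17; the 11 came without metastatic c-Myc-low replicate 1 or 2. Where this left 1 library in a primary group, it was assumed to vary like the other groups. Without metastatic c-Myc-high replicates 1 and 3, 0 keratins were called in c-Myc-high cells and 18 in c-Myc-low cells, the first by a fit with 1 such library. The class comparisons and the interaction gave 0 in every setting run. The replicate block gave 11 and 13 called keratins, but replicate numbers do not pair the samples: same-numbered deviations correlated at 0.0774 in primary and at 0.0872, -0.193 and -0.305 in metastatic libraries. The interaction was not run with only the compared groups, since it uses all 4. Relative log expression scaling moved the median of all genes by site from 0.38 to 0.28 in c-Myc-high cells, and by class in primary cells from -0.12 to 0.

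Signs turned only for values that were not called, and the cause was not tested. In the c-Myc-high site comparison Krt23 had a log2 fold change of 0.81 (limma-voom), 1.69 (replicate block) and -3.29 to 4.97 (leaving out 1 library). Krt19 ran from -5.41 to 7.2 on leaving out 1 library, and Krt18 had -4.87 without the 2 libraries rich in salivary gland transcripts. In the c-Myc-low site comparison Krt19 had 0.05 (limma-voom), 1.52 (replicate block) and -1.28 to 2.04 (leaving out 1 library, with 0.13 without metastatic c-Myc-low replicate 3). Between classes in primary cells Krt10 had -0.98 with limma-voom. Leaving out 1 library there gave -2.33 to 2.14 for Krt10, -0.25 to 0.92 for Krt1 (-0.18 without primary c-Myc-low replicate 2), -1.78 to 1.72 for Krt5 and -1.44 to 2.07 for Krt14. Where a gene failed the filter or had no counts in either group under an alternative, that alternative gave it no value. Calls by site were also lost under alternatives. Of 18 per gene, some with 1 library in a group, the c-Myc-high call held in 15 for Krt10 and Krt78. It held in 11 for Krt42, 10 for Krt13, 6 for Krt75 and 17 for each other called keratin. The c-Myc-low call held in 16 for Krt10, 14 for Krt42, 13 for Krt13 and 12 for Krt75. For Krt80 it held in 11, for Krt24 in 8 and for each other in 18. Depth limits the metastatic values, since 3 counts were 0.382 to 1.53 CPM in those libraries.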

Other observations

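A row named KRT6A in capitals falls outside the name rule. Its transcript is annotated as Gm5478 on chr15:101643020-101647380, between Krt75 and Krt6b, and it was lower in metastases in both classes, with log2 fold changes of -10.4 ± 1.14 SE and -9.87 ± 1.08 (adjusted p = 0.00138 and 0.00129). Its levels were 427 and 136 CPM in primary c-Myc-high, 319 and 82.8 CPM in primary c-Myc-low and 0 to 0.301 CPM in metastatic libraries.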
